A study of Mus musculus with 7 samples.

Results

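Guidance cues steer growing axons, migrating cells and vessel sprouts by attraction or repulsion. The semaphorins, ephrins, slits and netrins are their main families of ligands, and plexins with neuropilins, Eph receptor kinases, robos, and DCC with the UNC5 proteins are their receptors. In the adult spinal cord several of them are made by oligodendrocytes, astrocytes, endothelial cells (EC), meningeal fibroblasts and immune cells as well as by neurons, and many are known as limits on axon growth after spinal cord injury (SCI). The genes described here are the protein-coding members of these families. They were chosen by symbol and a mean count of at least 10 over the libraries, with earlier results of these data known. The rule was met by 68 of the 21965 genes in the count table. The 68 comprise 34 ligand genes and 34 receptor genes in 13 classes, and all 68 passed the filter on low counts.

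RNASeq was made from the contused T9 segment of the spinal cord at 3 days post injury (dpi 3). It compared 3 mice labelled *Bmal1-/-* (2 females, 1 male), homozygous for a germline *Arntl* allele (strain B6.129-Arntltm1Bra/J) on C57BL/6, with 4 C57BL/6 WT mice (2 females, 2 males), all young adults. Each library is 1 perfused mouse, and all 7 mice had the same moderate contusion. The allele acts in every tissue, and the *Bmal1-/-* mice were bred in house from heterozygotes while WT mice, apart from 1 littermate, were bought, so origin and genotype cannot be told apart in full. The libraries held 38529644 to 44096737 counts. The unit of level used is CPM, a gene's count relative to the TMM-scaled total of its library. *Arntl* itself ranged from 22.5 to 24.2 CPM in the 3 libraries labelled *Bmal1-/-* and from 11.9 to 15.3 CPM in WT. That is the opposite of a loss, and a count over the whole gene does not check the deleted part. Genotypes follow the labels, and a change is given as libraries labelled *Bmal1-/-* over WT.

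Markers of the cell types in the tissue moved with genotype and with single libraries, and their part in the results below was not tested. Neuronal markers (16 genes) summed to 7935 to 9467 CPM with the *Bmal1-/-* label and 3353 to 7703 CPM in WT, where replicate 3 was the lowest. EC markers (16 genes, with *Robo4* among them) summed to 663 to 738 CPM against 761 to 1167 in WT, with replicate 3 the highest. Astrocyte markers were at 18565 to 21061 against 12368 to 17658, pericyte markers at 401 to 496 against 502 to 587, and skeletal muscle markers at 62.7 to 68.9 against 98.3 to 127 CPM. By gene the muscle markers differed more than their sum, with 11 of 12 lower without overlap between the genotypes, 9 called as lower (edgeR, adjusted p under 0.05) and a median log2 fold change of -2.99. Fibroblast and meningeal markers were at 507 and 612 CPM in replicates 3 and 1 labelled *Bmal1-/-*, at 2752 in replicate 2, and at 1462 to 2391 in WT. The summed ranges of the genotypes overlapped for oligodendrocyte, OPC, microglia, macrophage, neutrophil, Schwann cell and ependymal markers, and WT replicate 3 had the highest macrophage sum (14721 CPM against 6573 to 9753 in the other WT libraries). Schwann cell markers overlapped as a sum, but 6 of the 9 tested were lower without overlap, 2 were called as lower (edgeR) and the median log2 fold change was -1.09. No marker gene was at 0 in all libraries, and the defining markers *Snap25*, *Nefl*, *Mbp*, *Gfap* and *Aqp4* were at 456 CPM or more in every library. In RNA of whole tissue, fewer cells of a type and less RNA per cell cannot be told apart.

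Of the 68 guidance genes, *Ntn1* rose and *Sema4b* fell in the libraries labelled *Bmal1-/-* with edgeR's quasi-likelihood test at an adjusted p under 0.05 (Benjamini-Hochberg, over the 15743 genes tested). They are 2.94% of the guidance genes, where 1.57% of all genes tested were called, 0.654% as higher and 0.915% as lower. An unadjusted p under 0.05 was reached by 19 (27.9%, background 20.9%). A wider count of 23 genes (33.8%) did not overlap between the genotypes, where 26.9% of all genes tested did not. Of these, 16 were higher (23.5%, background 13.4%) and 7 were lower (10.3%, background 13.5%). Over the 68 genes the median log2 fold change was 0.14, and that of all genes tested was -0.01. Between libraries of a genotype the median level of the 68 varied by as much (SD 0.14, log2). Log2 fold changes were above 0 in 41 of the 68 (60.3%, background 48.9%), and their range was -1.25 (*Ntn5*) to 0.69 (*Ntn1*). The median was 0.20 over the ligands and 0.01 over the receptors. The genes chosen are not replicates of each other, so these shares are given without a test.

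**Figure D1:**
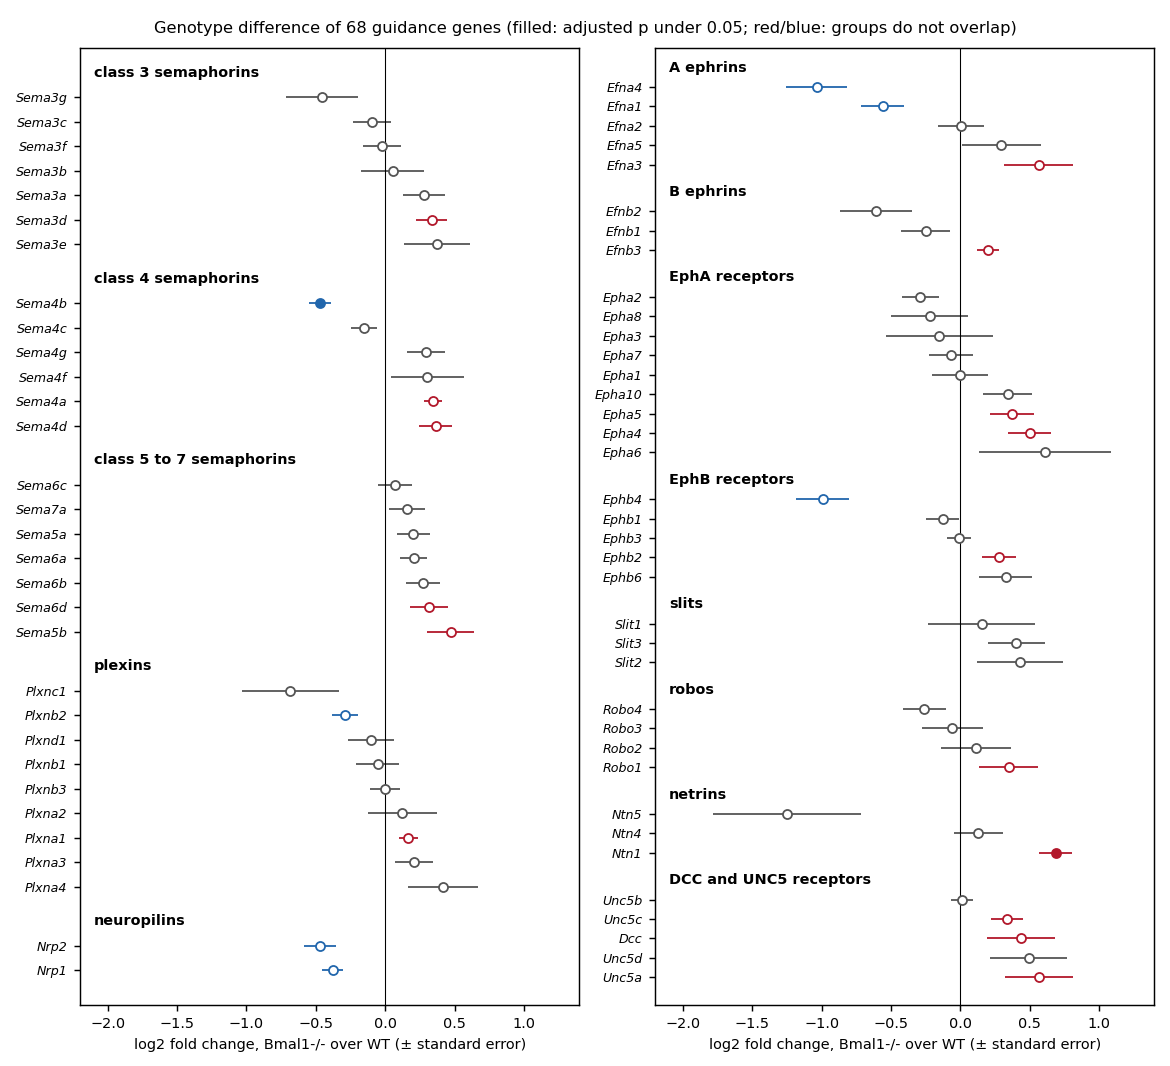
Log2 fold change of each of the 68 guidance genes, libraries labelled *Bmal1-/-* (n = 3) over WT (n = 4), by class, with its standard error from edgeR. Filled points passed an adjusted p of 0.05 (*Ntn1* and *Sema4b*), and red and blue points are the 16 higher and 7 lower genes whose genotypes did not overlap.

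Netrins are secreted, laminin-related proteins that attract axons through DCC and repel them through UNC5 receptors. *Ntn1*, which encodes netrin-1, was counted at 117, 131 and 93.1 CPM in replicates 1 to 3 labelled *Bmal1-/-* and at 71.0, 75.3, 72.4 and 63.6 CPM in WT replicates 1 to 4. The 3 values lay above the 4 WT values. The means were 114 ± 19.0 CPM (SD, n = 3) and 70.6 ± 4.95 CPM (SD, n = 4), which gave a log2 change of 0.69 (SE, standard error, 0.12, adjusted p = 0.0419, edgeR). *Ntn1* (ENSMUSG00000020902) lies on the minus strand of chromosome 11 of GRCm38 from 68209364 to 68400823. Its call held without WT replicate 3 or without replicate 3 labelled *Bmal1-/-*, and was lost when any other library was left out, and over these 7 fits the log2 fold change ran from 0.58 to 0.81. The call was also lost with limma-voom (0.67) and with upper-quartile normalization (0.66). Each of these fits that lost it also called fewer of all genes, 57 to 220 in place of 247.

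The other netrins measured were far less abundant. *Ntn4*, a netrin of vascular basement membranes, was at 6.74 to 8.82 CPM with the *Bmal1-/-* label and 5.19 to 8.34 CPM in WT, so the genotypes overlapped. *Ntn5* was near the limit of detection, with 5 to 26 counts a library, and its log2 fold change was -1.25 (SE 0.53, adjusted p = 0.238, edgeR).

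All 5 DCC and UNC5 receptor genes had log2 fold changes above 0 (background 48.9%), with a median of 0.44. None was called (edgeR), and 1 had an unadjusted p under 0.05 (20%, background 20.9%). With DESeq2 none of them had an adjusted p under 0.05 either. *Unc5c*, a repulsive receptor, was at 27.8, 25.1 and 28.4 CPM in replicates 1 to 3 labelled *Bmal1-/-* and at 21.5, 23.5, 17.5 and 23.3 CPM in WT replicates 1 to 4. Its genotypes did not overlap, and the log2 fold change was 0.34 (SE 0.11, adjusted p = 0.181, edgeR). *Unc5a* was at 27.1, 24.5 and 34.6 CPM against 22.5, 22.6, 11.5 and 20.98 CPM, a log2 fold change of 0.57 (SE 0.24, adjusted p = 0.242, edgeR). WT replicate 3 was the lowest library for both, as it was for the neuronal markers, and without it the log2 fold change of *Unc5a* was 0.38. *Hk3*, a gene on the opposite strand whose exons overlap those of *Unc5a*, was at 27.5 to 55.6 CPM. *Dcc*, the attractive receptor, was at only 3.44 to 4.39 CPM with the *Bmal1-/-* label and 1.75 to 3.43 CPM in WT, groups that just failed to overlap (log2 fold change 0.44, adjusted p = 0.320, edgeR). *Unc5b*, a receptor of EC as well as of axons, had the highest level per length of the class, 9.33 CPM per kb of exon, and a log2 fold change of 0.01 (SE 0.08). Its means were 58.7 ± 5.29 CPM (SD, n = 3) and 58.2 ± 3.77 CPM (SD, n = 4).

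Semaphorins are secreted (class 3), membrane-spanning (classes 4 to 6) or membrane-anchored by a lipid (class 7). Of 20 semaphorin genes, 15 had log2 fold changes above 0 (75%, background 48.9%), 6 did not overlap between the genotypes (30%, background 26.9%), and 1 was called. That gene was *Sema4b*, a membrane semaphorin, counted at 19.8, 18.6 and 17.8 CPM in replicates 1 to 3 labelled *Bmal1-/-* and at 27.8, 24.2, 26.5 and 25.1 CPM in WT replicates 1 to 4. The spread within each genotype was small, and the highest of the 3 values lay below the lowest WT value. The means were 18.7 ± 1.00 CPM (SD, n = 3) and 25.9 ± 1.57 CPM (SD, n = 4), which gave a log2 change of -0.47 (SE 0.08, adjusted p = 0.0369, edgeR). Its call held without WT replicate 3 and was lost when any other library was left out, and over these 7 fits the log2 fold change ran from -0.51 to -0.44. The call was also lost with sex as a covariate, at a log2 fold change of -0.48. Each of these fits that lost it also called fewer of all genes, 57 to 179 in place of 247.

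*Sema4b* (ENSMUSG00000030539) lies on the plus strand of chromosome 7 of GRCm38 from 80186841 to 80226527, the chromosome of *Arntl*, at a distance of 33.0 Mb. RefSeq (GRCm38.p6) gives windows from 250 bases before to 50 bases after a transcription start for 58 of the 68 guidance genes, and for *Sema4b* it gives a pair. The E-box CACGTG, the canonical motif of heterodimers of BMAL1 and CLOCK, was searched in them and reads the same on both strands. It was in at least 1 window of 5 guidance genes (8.62% of 58), where 8.09% of the 27025 genes with a window had it. The window of the second *Sema4b* start is shown, with the motif in capitals, because *Sema4b* is a called gene. *Ntn1* is not among the 58 genes and was not searched. The window lies at chr7:80198338-80198637 on the plus strand. The window of its first start has none.

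*Sema4b* second start: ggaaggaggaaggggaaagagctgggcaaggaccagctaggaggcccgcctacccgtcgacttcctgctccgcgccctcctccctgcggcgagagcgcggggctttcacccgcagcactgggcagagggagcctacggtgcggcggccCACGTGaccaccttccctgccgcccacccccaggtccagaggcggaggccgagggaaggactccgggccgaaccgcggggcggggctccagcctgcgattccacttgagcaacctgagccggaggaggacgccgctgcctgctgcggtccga

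The other 4 genes with the motif were *Sema6d*, *Sema3e*, *Robo2* and *Epha8*, with log2 fold changes of 0.32, 0.37, 0.11 and -0.22, and none of them was called (edgeR, adjusted p from 0.239 to 0.794, unadjusted p under 0.05 for *Sema6d*). DESeq2 called none of these 4. A match is a string of letters in a window and was not tested as a site.

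Among the other class 4 semaphorins, *Sema4d* and *Sema4a* stood above every WT value in all 3 libraries labelled *Bmal1-/-*. *Sema4d*, a ligand of B plexins made by oligodendrocytes and leukocytes, was at 221, 276 and 222 CPM in replicates 1 to 3 labelled *Bmal1-/-* and at 166, 189, 174 and 215 CPM in WT replicates 1 to 4. The gap between the genotypes was narrow, and the log2 fold change was 0.37 (SE 0.12, adjusted p = 0.171, edgeR). *Sema4a*, known from immune cells and named here after its values were seen, was at 43.6, 40.7 and 46.6 CPM against 34.6, 33.2, 33.4 and 36.1 CPM. Its log2 fold change was 0.35 (SE 0.07), which did not pass (adjusted p = 0.0597, edgeR) and passed without WT replicate 3 (0.33, adjusted p = 0.0440, edgeR). *Sema4c*, *Sema4f* and *Sema4g* overlapped between the genotypes, with log2 fold changes of -0.15, 0.30 and 0.29.

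The 7 secreted class 3 semaphorins had log2 fold changes from -0.46 to 0.37 and a median of 0.05. *Sema3d* was the member with the lowest p, at 33.2, 41.6 and 32.1 CPM in replicates 1 to 3 labelled *Bmal1-/-* and 29.3, 28.9, 25.1 and 29.8 CPM in WT replicates 1 to 4. The genotypes did not overlap, and the log2 fold change of 0.33 (SE 0.11) did not pass (adjusted p = 0.173, edgeR). *Sema3b* had the highest level per length of the class, 7.78 CPM per kb. Its genotypes overlapped over nearly their whole ranges, 26.7 to 46.3 CPM with the *Bmal1-/-* label and 29.7 to 48.6 CPM in WT. *Sema3a*, the prototype repellent that binds neuropilin-1, was at 25.1 to 33.8 against 19.9 to 29.4 CPM, and its genotypes overlapped (log2 fold change 0.28, standard error 0.15). *Sema3g*, known from vessels, was at 31.8 CPM in WT replicate 3 and 14.3 to 17.7 in the other 6 libraries, and its log2 fold change of -0.46 was -0.16 without that library.

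All 7 genes of classes 5 to 7 had log2 fold changes above 0 (background 48.9%), from 0.07 to 0.47. None was called by edgeR or DESeq2, and 2 had an unadjusted p under 0.05 with edgeR (28.6%, background 20.9%). WT replicate 3 was the lowest of the 7 libraries for 6 of these 7 genes (background 35.9%). Without it 6 were above 0 and *Sema6c* was at -0.01. *Sema5b* was at 15.6, 18.7 and 17.8 CPM in replicates 1 to 3 labelled *Bmal1-/-* and at 13.5, 13.6, 8.86 and 14.2 CPM in WT replicates 1 to 4. The genotypes did not overlap, and the log2 fold change was 0.47 (SE 0.17, adjusted p = 0.192, edgeR). *Sema6d*, a ligand of A plexins, was at 201 to 227 CPM against 132 to 198 CPM (log2 fold change 0.32, standard error 0.13). *Sema7a*, a ligand of plexin C1 and of integrins, was the most abundant semaphorin per length, at 54.9 CPM per kb, and its genotypes overlapped (192 ± 16.5 CPM, SD, n = 3, against 173 ± 27.8 CPM, SD, n = 4).

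**Figure D2:**
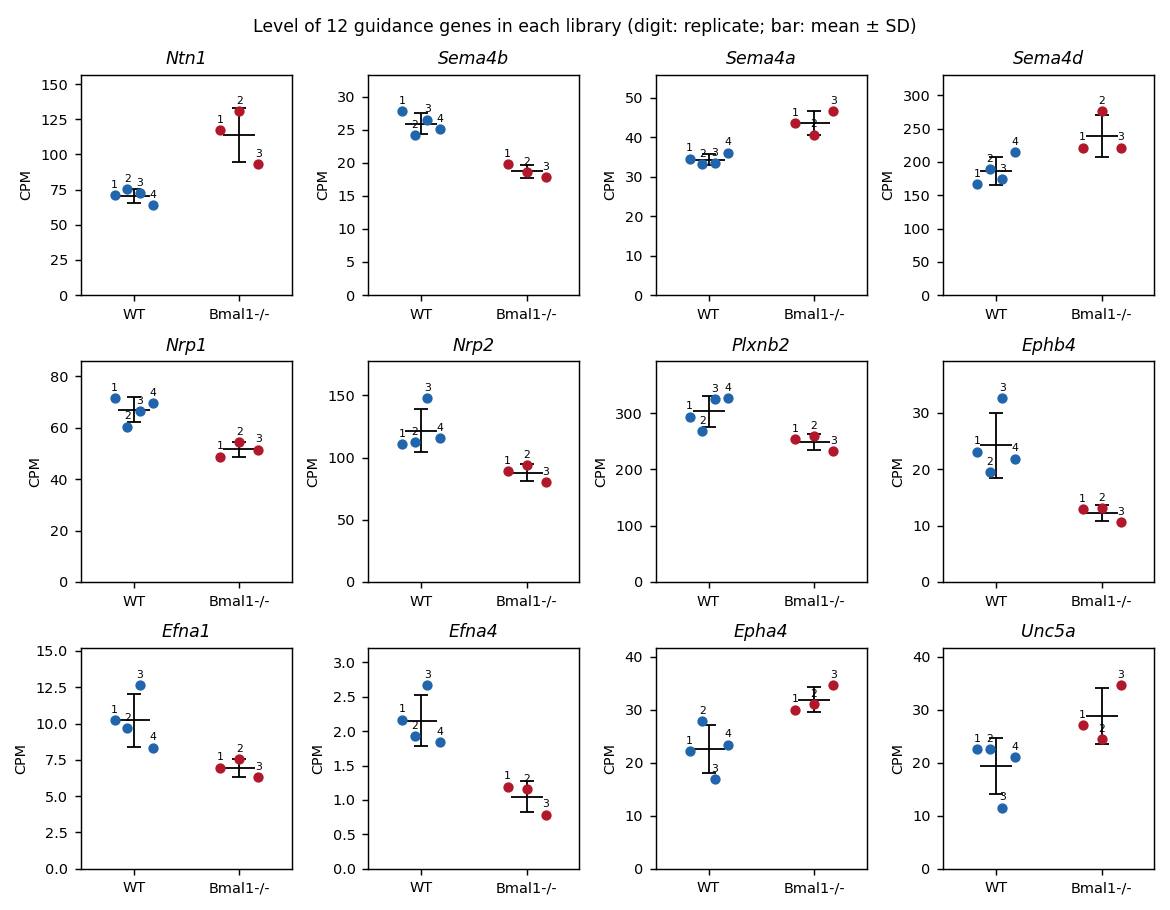
CPM of 12 guidance genes in each library, with the replicate number beside each point and bars for the mean ± SD (WT n = 4, *Bmal1-/-* n = 3). *Ntn1*, *Sema4a*, *Sema4d*, *Epha4* and *Unc5a* are higher and the other 7 lower in every library labelled *Bmal1-/-*, and WT replicate 3 is the highest point for *Nrp2*, *Ephb4*, *Efna1* and *Efna4* and the lowest for *Epha4* and *Unc5a*.

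Neuropilins are co-receptors for class 3 semaphorins and for VEGF, and both stood below every WT value in all 3 libraries labelled *Bmal1-/-*. *Nrp1* was at 48.8, 54.5 and 51.5 CPM in replicates 1 to 3 labelled *Bmal1-/-* and at 71.5, 60.5, 66.6 and 69.6 CPM in WT replicates 1 to 4. The log2 fold change was -0.38 (SE 0.08, adjusted p = 0.0639, edgeR). *Nrp2* was at 89.3, 93.8 and 80.6 CPM against 111, 112, 148 and 116 CPM, a log2 fold change of -0.47 (SE 0.12, adjusted p = 0.103, edgeR). WT replicate 3 stood above the other WT libraries for *Nrp2*. Without WT replicate 3 both fell past the threshold, *Nrp1* by 0.38 (adjusted p = 0.0437, edgeR) and *Nrp2* by 0.36 on the log2 scale (adjusted p = 0.0281, edgeR). The summed EC, pericyte and skeletal muscle markers were also lower in the libraries labelled *Bmal1-/-*, and a link to the neuropilins was not tested.

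Plexins are the signalling receptors for semaphorins. Of the 9 plexin genes 4 were above and 5 below 0, with the median log2 fold change at -0.0022. *Plxnb2* was the most abundant of them per length, at 36.2 CPM per kb. It was at 254, 259 and 232 CPM in replicates 1 to 3 labelled *Bmal1-/-* and at 294, 268, 324 and 326 CPM in WT replicates 1 to 4. The genotypes did not overlap, and the log2 fold change was -0.29 (SE 0.09, adjusted p = 0.164, edgeR). *Plxna1* also did not overlap, in the other direction, at 99.97 to 111 CPM against 85.8 to 98.7 CPM (log2 fold change 0.17, standard error 0.07). *Plxnb1* and *Plxnb3*, the latter a plexin of oligodendrocytes, had log2 fold changes of -0.05 and -0.0022. *Plxna2*, *Plxna3* and *Plxna4* were lowest in WT replicate 3. *Plxnc1*, named after its values were seen, was at 80.0 and 51.4 CPM in WT replicates 1 and 2, the WT females, and at 27.5 to 31.6 CPM in the other 5 libraries. *Plxnd1*, the plexin of vessels, overlapped between the genotypes (91.4 ± 12.1 CPM, SD, n = 3, against 97.9 ± 19.6 CPM, SD, n = 4).

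Ephrins are membrane-bound ligands, anchored by a lipid (A) or spanning the membrane (B), and signal in both directions with Eph receptors on the next cell. *Efna1*, an ephrin of EC, was at 6.96, 7.54 and 6.29 CPM in replicates 1 to 3 labelled *Bmal1-/-* and at 10.2, 9.67, 12.7 and 8.35 CPM in WT replicates 1 to 4. All 3 values lay below the WT values, and the log2 fold change was -0.56 (SE 0.16, adjusted p = 0.128, edgeR). *Efna4* was scarce, with 31 to 107 counts a library. It was at 1.19, 1.16 and 0.787 CPM against 2.17, 1.93, 2.67 and 1.84 CPM, a log2 fold change of -1.04 (SE 0.22, adjusted p = 0.0737, edgeR), and an antisense gene overlaps its exons. *Efna3* went the other way, at 18.4, 19.2 and 25.0 CPM against 15.8, 16.9, 8.21 and 15.5 CPM. The genotypes did not overlap. Its log2 fold change of 0.57 (SE 0.25, adjusted p = 0.247, edgeR) was 0.38 without WT replicate 3, the lowest library. *Efna2* and *Efna5* overlapped between the genotypes.

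*Efnb3*, a midline barrier and myelin-associated inhibitor of axons, had the highest level per length of all 68 genes, 61.6 CPM per kb of exon. It was at 204, 214 and 218 CPM in replicates 1 to 3 labelled *Bmal1-/-* and at 166, 182, 185 and 203 CPM in WT replicates 1 to 4, so the lowest of the 3 values and the highest WT value nearly met. Its log2 fold change was 0.20 (SE 0.08, adjusted p = 0.218, edgeR). *Efnb2*, the arterial ligand of EPHB4, was at 8.59, 17.7 and 10.7 CPM against 20.8, 21.8, 14.7 and 17.98 CPM. Replicate 2 labelled *Bmal1-/-* reached the WT range while the other 2 did not, and that library also stood apart by its fibroblast and meningeal markers. The log2 fold change was -0.61 with all libraries and ranged from -0.96 to -0.40 with each left out (SE 0.26, adjusted p = 0.238, edgeR).

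The largest difference among the Eph receptors was that of *Ephb4*, the receptor of venous EC. It was at 12.96, 13.04 and 10.6 CPM in replicates 1 to 3 labelled *Bmal1-/-* and at 23.1, 19.4, 32.6 and 21.9 CPM in WT replicates 1 to 4. Each of the 3 values was well under the lowest WT value, and WT replicate 3 was the highest. The means were 12.2 ± 1.41 CPM (SD, n = 3) and 24.3 ± 5.77 CPM (SD, n = 4), which gave a log2 change of -0.99 (SE 0.19), which did not pass (adjusted p = 0.0557, edgeR). Without WT replicate 3 it fell by 0.82 on the log2 scale and passed (adjusted p = 0.0127, edgeR). *Zan*, on the opposite strand, overlaps its exons and was at 0.424 to 1.41 CPM. The other EphB genes were closer between the genotypes. *Ephb1* and *Ephb3* had log2 fold changes of -0.13 and -0.01. *Ephb2* did not overlap, at 28.7 to 30.0 CPM against 19.0 to 26.9 CPM (log2 fold change 0.28, standard error 0.12). *Ephb6*, a receptor without kinase activity and the most abundant EphB gene per length at 12.4 CPM per kb, was at 49.6 to 59.3 against 27.9 to 50.1 CPM and overlapped.

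*Epha4*, which binds both classes of ephrin and is known to restrain corticospinal axons, was at 30.0, 31.0 and 34.6 CPM in replicates 1 to 3 labelled *Bmal1-/-* and at 22.1, 27.8, 16.9 and 23.4 CPM in WT replicates 1 to 4. The genotypes did not overlap. The log2 fold change was 0.50 (SE 0.16, adjusted p = 0.160, edgeR), and 0.38 without WT replicate 3. *Epha5* was also higher in each library labelled *Bmal1-/-*, at 34.7 to 38.1 against 20.3 to 34.1 CPM. *Epha10* had the highest level per length of the EphA genes (4.21 CPM per kb) and overlapped, at 30.0 to 40.0 against 20.02 to 33.3 CPM. Of the 9 EphA genes, 4 were above 0 and 5 below, with a median log2 fold change of -0.01. *Epha3*, named after its values were seen, was at 2.82, 5.15 and 1.90 CPM in replicates 1 to 3 labelled *Bmal1-/-*. In WT it was at 2.45 to 5.01 CPM, so the genotypes overlapped.

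Slits are secreted repellents of the robo receptors. *Slit1*, *Slit2* and *Slit3* had log2 fold changes of 0.15, 0.43 and 0.41, and the genotypes overlapped for each. *Slit1*, the most abundant per length (5.44 CPM per kb), was at 31.9, 28.2 and 42.5 CPM in replicates 1 to 3 labelled *Bmal1-/-* and at 49.2, 30.5, 13.2 and 30.0 CPM in WT replicates 1 to 4. WT libraries held both its highest and its lowest value, and its log2 fold change was -0.10 without WT replicate 3. *Slit3* was at 9.84, 12.3 and 11.7 CPM against 9.08, 10.95, 5.79 and 8.30 CPM (adjusted p = 0.292, edgeR). *Slit2* was at 33.4 to 41.3 CPM against 13.3 CPM in WT replicate 3 and 30.4 to 36.2 in the other WT libraries. *Robo1* and *Robo2*, the axonal receptors, were also lowest in WT replicate 3, at 28.2 and 29.7 CPM. In the other 6 libraries *Robo1* was at 49.7 to 65.1 CPM and *Robo2* at 45.5 to 67.1 CPM. *Robo4*, the endothelial member, had WT replicate 3 as its highest library (24.5 CPM) and 15.3 to 18.1 CPM in the other 6. Its log2 fold change of -0.26 (SE 0.15, adjusted p = 0.344, edgeR) was -0.11 without that library. *Robo3* was at 1.11 to 1.77 CPM with 47 to 70 counts a library.

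**Figure D3:**
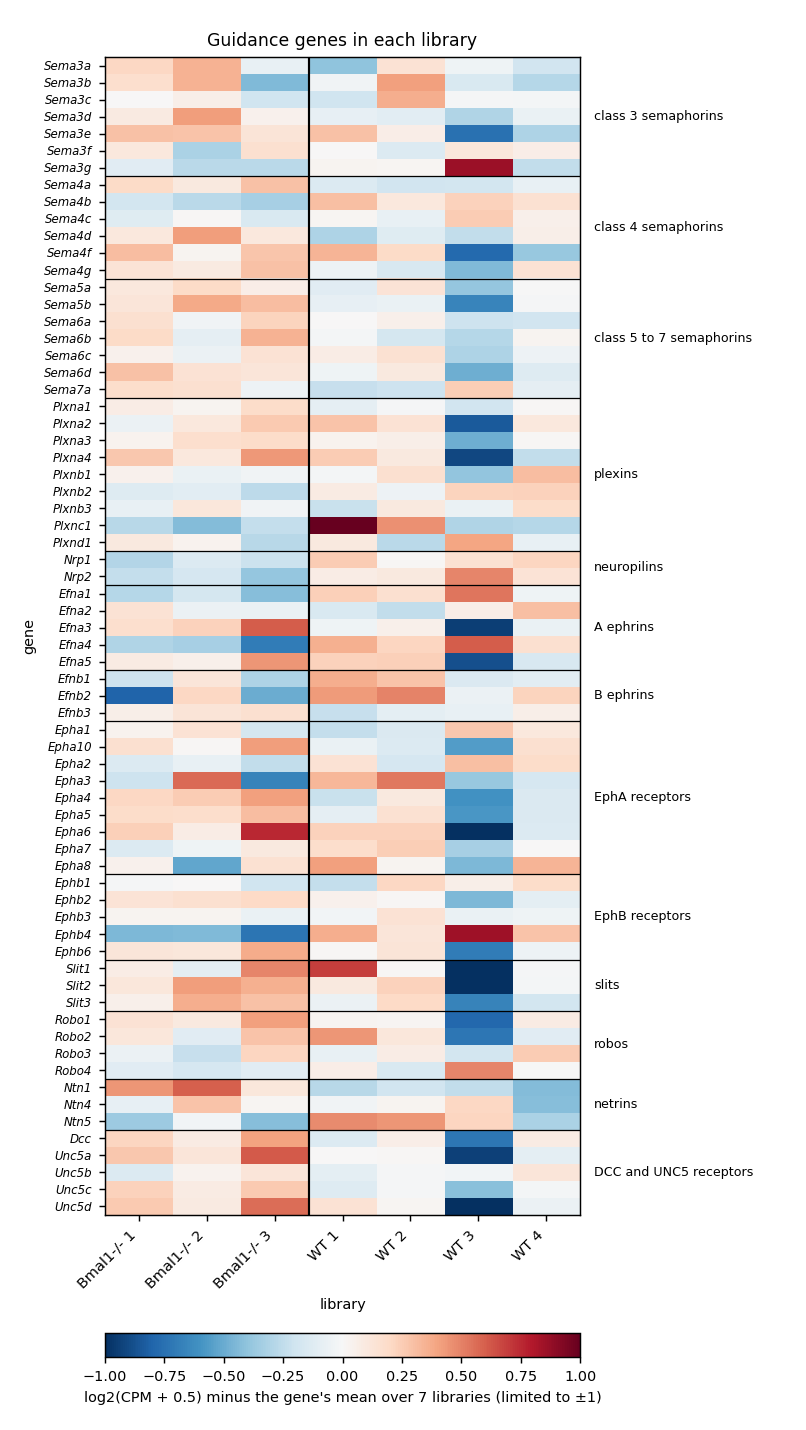
Heat map of the 68 guidance genes (rows, by class) in the 7 libraries (columns), as log2(CPM + 0.5) minus the mean of the gene over the 7 libraries, with the color limited to ±1. The column of WT replicate 3 is the darkest, with 33 genes at their lowest and 11 at their highest there.

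WT replicate 3 was the lowest of the 7 libraries for 33 of the 68 guidance genes (48.5%, against 35.9% of all genes tested) and the highest for 11 (16.2%, against 33.9%). The genes at their highest there include *Ephb4*, *Nrp2*, *Efna1*, *Efna4*, *Sema3g* and *Robo4*, and those at their lowest include the slits, *Dcc*, *Unc5a*, *Unc5c*, *Unc5d* and *Plxna4*. Without that library the median log2 fold change of the 68 was 0.09 in place of 0.14, and 40 were above 0. Among slits it became 0.20 in place of 0.41, among DCC and UNC5 receptors 0.26 in place of 0.44, and among neuropilins -0.37 in place of -0.42. The genotypes then did not overlap for 25 genes (36.8%, where 30.8% of all genes tested did not). Of these, 17 were higher (background 15.5%) and 8 lower (background 15.3%). Leaving out a library can only keep or raise such a count. edgeR then called 6 guidance genes (8.82%, where 4.66% of the genes tested were called), namely *Ntn1* and *Sema4a* as higher and *Sema4b*, *Nrp1*, *Nrp2* and *Ephb4* as lower. With all libraries, DESeq2 called 9 (13.2%, where 9.13% of the genes tested were called), the same 6 with *Epha4*, *Efna1* and *Efna4*.

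**Figure D4:**
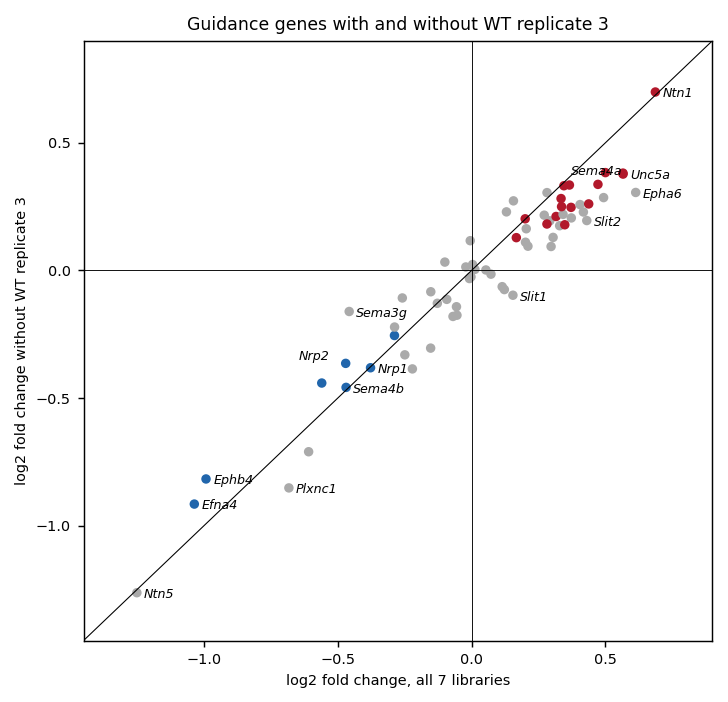
Log2 fold change of each guidance gene with all 7 libraries (x axis) and without WT replicate 3 (y axis), with the line of equal values. Red and blue points are genes whose genotypes did not overlap with all libraries, and *Ntn1* and *Sema4b* lie near the line (0.70 and -0.46 without the library) while *Slit1* crosses 0.

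Other genes of the guidance pathways were followed on a pair of lists. Of 37 further cues, receptors and co-receptors, such as *Neo1* and the myelin inhibitor *Rtn4*, 25 had log2 fold changes above 0 (67.6%, background 48.9%). Their median was 0.12. edgeR called 0 of them, with 7 at an unadjusted p under 0.05 (18.9%, background 20.9%). Of 54 intracellular genes, such as collapsin response mediators, MICAL enzymes and regulators of small GTPases, edgeR called 0, with 12 at an unadjusted p under 0.05 (22.2%) and a median of 0.04. DESeq2 called 11 genes over both lists (12.1%, where it called 9.13% of all genes tested) and limma-voom 0. The intracellular gene with the lowest p, named after its value was seen, was *Rnd1*, a small GTPase that binds plexins. It was at 53.3, 47.0 and 58.5 CPM in replicates 1 to 3 labelled *Bmal1-/-* and at 38.0, 40.1, 32.0 and 33.6 CPM in WT replicates 1 to 4. The genotypes did not overlap, and the log2 fold change was 0.56 (SE 0.11, adjusted p = 0.0559, edgeR).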

How the data were processed

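RNASeq counts from 3 libraries labelled *Bmal1-/-* and 4 WT libraries were used. The authors made stranded poly-A libraries, checked reads with FastQC 0.10.1, used Tophat2 for alignment (GRCm38) and HTSeq 0.10.0 for the count of each gene (versions from the submitters' processing notes). They deposited raw counts without normalization. The annotation release and strand setting of the counting are not given in the sources used here, so genes whose exons overlap an antisense gene are uncertain. Each library is 1 mouse.

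Symbols, exon lengths and positions came from GENCODE release M21 (GRCm38), which matched 21939 of 21965 IDs. edgeR's filterByExpr left 15743 genes, scaled by TMM. Genotype was the only term of the quasi-likelihood model (edgeR 4.0.16, R 4.3.3), with Benjamini-Hochberg adjustment over all genes tested and a threshold of 0.05. A standard error is the log2 fold change over the root of its F value. Levels were compared between genes as CPM per kb of exon. Alternatives used DESeq2 1.42.0, limma-voom (limma 3.58.1), RLE size factors, upper-quartile normalization, other filters, sex as a covariate, a replicate block and each library left out. The tests were checked on simulated data.

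Members and lists were chosen with earlier results of these data known. Named were called members, the lowest p and highest level per length of each class, and the members changed most among those without overlap (up to 6 each way). Other genes named were added after their values were seen. For *Ntn3* the table used here held no row, and it was not analysed here. Totals of 38529644 to 44096737 counts a library put all but 7 of the 68 genes at over 100 counts in every library.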

Additional observations from a re-analysis of the deposited data

Results flagged for a closer look

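For 6 of the 68 guidance genes, WT replicate 3 lay far from the other 3 WT libraries, with a gap to the nearest of them that took most of the range of the 4, past Dixon's 95% limit for 4 samples. This share of the range was 0.868 for *Sema5b* (8.86 CPM, the lowest), 0.904 for *Plxna3* (24.1 CPM, the lowest), 0.843 for *Efna3* (8.21 CPM, the lowest), 0.912 for *Robo1* (28.2 CPM, the lowest) and 0.852 for *Unc5a* (11.5 CPM, the lowest). For *Nrp2* the library was the highest (148 CPM), with a share of 0.87. Chance alone flags about 1 in 20 groups, and 68 were looked at. The same count was not made over all genes. Of all genes tested, WT replicate 3 was the lowest library for 35.9% and the highest for 33.9%. Nothing particular to the guidance genes is therefore drawn from the flags. No other WT library was flagged, and groups of 3 were not looked at. Without WT replicate 3 the log2 fold changes of *Sema5b*, *Efna3*, *Unc5a* and *Nrp2* were 0.34, 0.38, 0.38 and -0.36, and those of *Plxna3* and *Robo1* were 0.10 and 0.18. An interaction of sex and genotype was also fitted with edgeR, but only 1 male carries the *Bmal1-/-* label. The fit therefore cannot decide whether the effect of genotype differs between females and males, and nothing is drawn from it.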

How the results depend on the processing

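The number of guidance genes called, 2 with all libraries, was 9 with DESeq2, 1 each with limma-voom (*Sema4b*), with upper-quartile normalization (*Sema4b*) and with sex as a covariate (*Ntn1*), and 0 to 6 with each library left out (6 without WT replicate 3). It stayed at 2 with RLE size factors and with both other filters. With a replicate block on the 6 libraries that share numbers 1 to 3 it was 0, and edgeR then called 0 of all genes, with 14 guidance genes at an unadjusted p under 0.05. Calls over all genes moved as well. They were 247 with all libraries, 206 with limma-voom, 220 with upper-quartile normalization and 174 with sex as a covariate. With a library other than WT replicate 3 left out they were 57 to 179, and without WT replicate 3 they were 730. Deviations from the genotype means gave r of -0.17, 0.18 and -0.29 between libraries with the same number. Between libraries with different numbers r ran from -0.29 to 0.34. With so few libraries this check cannot decide whether the numbers pair the mice, and numbers 1 to 3 match in sex. The count of other pathway genes, 0 of the 91 on both lists, was 11 with DESeq2 and 0 to 4 with each library left out. DESeq2 called 9.13% of all genes tested. The 4 were called without WT replicate 3, where edgeR called 4.66% of all genes tested. The median log2 fold change of the guidance genes was 0.09 to 0.18 over the alternative runs, which all reuse the same mice. Between libraries of a genotype the median level of these genes varied with an SD of 0.14 on the log2 scale. That is about the size of the median change itself, 0.14 with all libraries. Over the 25 genes named by rule, 340 of 375 alternative values kept direction and side of the threshold, 9 gained a call and 16 lost one. The lost calls were all of *Sema4b* and *Ntn1*, the only 2 of these genes called with all libraries. For the others, staying uncalled counts as kept. The sign changed in 10 of the 375 values, all near 0. *Sema3b* was at -0.055 with sex as a covariate and -0.051 with the replicate block, and ran from -0.11 to 0.25 with each library left out. *Unc5b* was at -0.016 with upper-quartile normalization and ran from -0.050 to 0.082. *Slit1* ran from -0.10 to 0.48. The cause of these changes was not tested. The count of genes without overlap after leaving out WT replicate 3 was added after seeing the data. Depth limits mainly *Ntn5* (5 to 26 counts a library), *Epha6* (26 to 180), *Efna4* (31 to 107) and *Robo3* (47 to 70).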
